A study of Mus musculus with 6 samples.

Results

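Complement components and receptors were followed in BV2 cells, an immortalised mouse microglial line of wild-type genotype per the labels, on 6 Affymetrix whole-transcript arrays. The genes were chosen by name and comprise C1qa, C1qb, C1qc, C3, C3ar1, C5ar1, Cfb, Cfp and Itgam, 9 in all. Each was read from the brightest probe set annotated with its symbol alone, and 8 of the 9 had such a row among 22180 genes; C3 was not analysed here. The Tel+GW+LPS group (telmisartan, GW9662 and lipopolysaccharide, 3 arrays) was set against the Tel+LPS group (telmisartan and lipopolysaccharide, 3 arrays), with the same timing in both, 2 h of drug followed by 1 h of lipopolysaccharide (LPS). LPS, a bacterial cell wall component, signals through TLR4. Telmisartan is an angiotensin receptor blocker that also partially activates PPARG, a nuclear receptor, and GW9662 binds PPARG covalently and blocks it. Every array therefore carries telmisartan and LPS, and the comparison asks only what the antagonist adds. The labels give no dose and do not say whether the samples of a group came from separate cultures, so p-values reflect only how much these samples vary, part of which may be technical. BV2 is 1 line, and its transcripts need not match those of microglia in the brain.

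Complement is a cascade of plasma and tissue proteins that tags targets for uptake. C1q, built from the chains of C1qa, C1qb and C1qc, starts the classical route, factor B (Cfb) and properdin (Cfp) build and stabilise the alternative convertase, and both routes cleave C3. The fragments are read by receptors, among them the C3a receptor (C3ar1), the C5a receptor (C5ar1) and complement receptor 3, whose alpha chain CD11b is encoded by Itgam. In brain, microglia are a main source of C1q and carry these receptors, and complement is known there for the removal of synapses and debris.

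No complement gene passed the test when GW9662 was added. Of the 7 members above the level filter, a mean log2 level of 6.15 that is the median over all probe sets, 0 passed in limma at an adjusted p of 0.05, against 0.0409% of the 12212 genes tested (3 higher and 2 lower). All 7 had adjusted p = 0.994. At an unadjusted p under 0.05 in limma there were also 0 of 7 members. Of the 12212 genes tested, 543 reached it in either direction, and 2.78% of all genes tested reached it in the lower direction. The sizes were small. Differences, Tel+GW+LPS minus Tel+LPS on the log2 scale, lay between -0.29 for C1qb and 0.05 for C1qa, with a median of -0.13 where the whole set of genes tested had -0.02. The 6 members with a lower mean were C1qb, C1qc, Cfp, C3ar1, C5ar1 and Itgam; 58.8% of all genes tested had a negative difference. The range between the 10th and 90th percentiles of all genes tested was -0.13 to 0.09. C1qb, C1qc and Cfp lay below this range, and C3ar1 lay just below its lower end, at -0.1344 against -0.1342.

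The C1q chain genes lie next to each other on chromosome 4 in the order C1qb, C1qc, C1qa. Across the arrays, C1qa did not share the pattern of C1qb and C1qc. C1qb (probe set 17431607) had log2 levels of 9.35, 9.27 and 9.49 in Tel+GW+LPS cells, against 9.66, 9.93 and 9.39 in Tel+LPS cells. The groups overlapped because replicate 3 of Tel+LPS was as low as the arrays with the antagonist. The mean was 9.37 ± 0.11 in Tel+GW+LPS cells and 9.66 ± 0.27 in Tel+LPS cells (SD, n = 3 each), a difference of -0.29 ± 0.13 (SE) in limma with a 95% interval of -0.59 to 0.01. As a ratio this is 0.82, with an interval of 0.67 to 1.01. It ranked 100 of 12212 by the most negative difference and 619 by p, the lowest p among the members (adjusted p = 0.994, limma).

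C1qc (probe set 17431612) had 6.74, 6.74 and 6.81 in Tel+GW+LPS cells, against 6.98, 7.18 and 6.67 in Tel+LPS cells. Replicate 3 of Tel+LPS lay below all 3 arrays with GW9662, and replicate 2 of Tel+LPS was the highest array. The difference was -0.18 ± 0.12 (SE), with a 95% interval of -0.46 to 0.10. The C1qc levels were tight with the antagonist, with an SD of 0.04, and spread without it, with an SD of 0.26 (n = 3 each).

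C1qa (probe set 17431619) went the other way in mean. Its log2 levels were 6.95, 6.75 and 7.09 in Tel+GW+LPS cells, against 6.78, 6.98 and 6.87 in Tel+LPS cells. The groups lay across each other, and both the lowest and the highest array had received GW9662. The difference was 0.05 ± 0.10 (SE), with a 95% interval of -0.17 to 0.27, and it turned to -0.03 without replicate 3 of Tel+GW+LPS.

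Set as deviations from each gene's own mean over the 6 arrays, C1qb and C1qc ran close together, with a root mean square distance of 0.07 on the log2 scale, while C1qa stood 0.22 from C1qb and 0.20 from C1qc. Properdin stood 0.12 from C1qb and 0.09 from C1qc, and was as near to C3ar1, at 0.10, and C5ar1, at 0.11. Replicate 2 of Tel+LPS was the highest array of C1qb, C1qc and Cfp, at 0.41, 0.33 and 0.31 above their means, and also of C3ar1 and C5ar1, at 0.11 and 0.10. The closest pair of members was C3ar1 and C5ar1, at 0.05. For the mean profile of the 3 chain genes, the closest of the other genes tested were Psmb10, a subunit gene of the immunoproteasome, at 0.0266, Dusp12, an atypical dual-specificity phosphatase gene, at 0.0285, and Ube2l6, the gene of an ISG15-conjugating enzyme, at 0.0348, over 6 arrays. That mean profile averages C1qa with C1qb and C1qc, whose pattern C1qa did not share. Nearness to the mean profile therefore need not be nearness to each chain gene. Such distances describe these 6 arrays, and with 12212 genes tested some gene is near any profile.

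**Figure D1:**
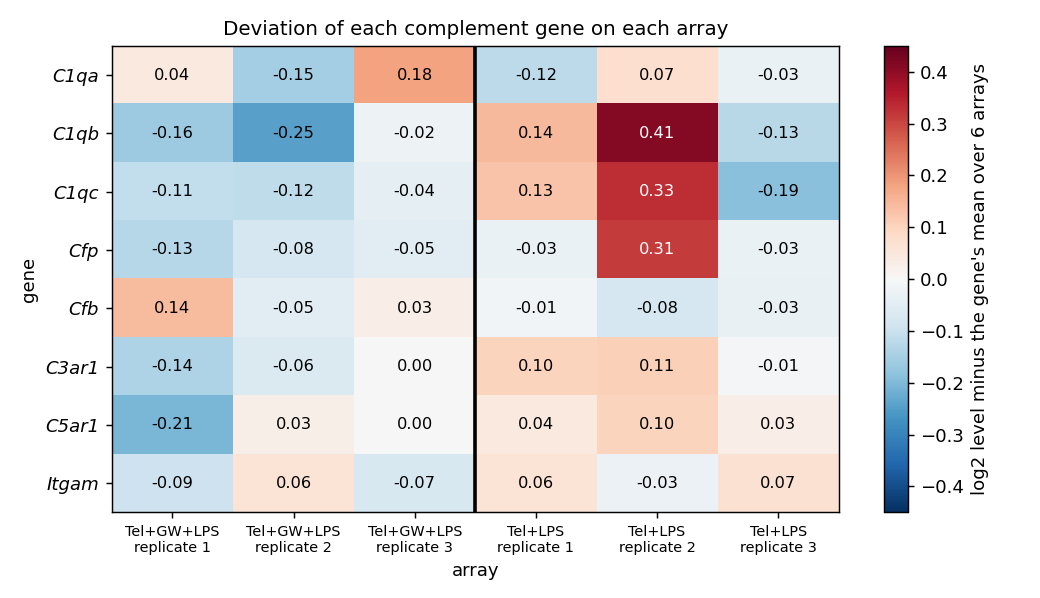
Log2 level of each complement gene on each array minus the gene's mean over the 6 arrays (colour and printed value), with genes in rows, the 3 Tel+GW+LPS arrays left of the line and the 3 Tel+LPS arrays right of it. Replicate 2 of Tel+LPS holds the highest values of C1qb, C1qc and Cfp, at 0.41, 0.33 and 0.31, and replicate 3 of Tel+LPS lies below the mean for C1qb and C1qc, at -0.13 and -0.19.

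The start regions of C1qb, C1qc and Cfp are shown as those of the genes that stood highest above their means on replicate 2 of Tel+LPS, a choice made after their values were seen. The windows, from RefSeq on build GRCm38.p6, run from 250 bases before to 50 bases after the start and lie on the minus strand at chr4:136886151-136886450 for C1qb, chr4:136892865-136893164 for C1qc and chrX:20931506-20931805 for Cfp. Capitals mark GAGGAA on either strand, the core letters of sites of PU.1, the lineage factor of myeloid cells.
C1qb: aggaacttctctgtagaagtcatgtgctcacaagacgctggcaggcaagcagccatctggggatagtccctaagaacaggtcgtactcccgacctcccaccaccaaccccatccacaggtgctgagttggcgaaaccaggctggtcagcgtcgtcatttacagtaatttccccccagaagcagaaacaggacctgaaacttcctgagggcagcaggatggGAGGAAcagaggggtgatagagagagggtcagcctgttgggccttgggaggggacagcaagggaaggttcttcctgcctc
C1qc: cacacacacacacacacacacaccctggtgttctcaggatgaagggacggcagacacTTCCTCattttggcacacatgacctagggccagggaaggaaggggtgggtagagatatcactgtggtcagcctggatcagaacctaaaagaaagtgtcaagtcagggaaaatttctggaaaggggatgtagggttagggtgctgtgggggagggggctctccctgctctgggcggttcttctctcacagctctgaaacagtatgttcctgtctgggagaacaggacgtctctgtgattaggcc
Cfp: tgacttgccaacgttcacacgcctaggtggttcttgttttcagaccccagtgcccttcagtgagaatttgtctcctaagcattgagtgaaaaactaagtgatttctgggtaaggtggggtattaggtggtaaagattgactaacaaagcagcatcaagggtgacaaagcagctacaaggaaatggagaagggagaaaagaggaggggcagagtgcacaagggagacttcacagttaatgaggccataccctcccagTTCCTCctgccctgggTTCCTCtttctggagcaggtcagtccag

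GAGGAA occurred once in the C1qb window and once in the C1qc window, at positions -30 and -193 from the start, and in the Cfp window it occurred at 7 and 23 past the start, on the opposite strand, as in C1qc. Of the 6 members with a window, 4 held it (Itgam was the other one, with 3 matches), and 28.3% of 32851 windows of the same length hold it. C3ar1 and C5ar1 held none. Whether these letters bear on the levels of any array was not tested. The kB consensus of NF-kB was searched as GGGRNWYYCC on both strands (R is A or G, N any base, W A or T, Y C or T). It was found in 1 of the 6, C1qc, at -41, and in 4.51% of all windows. TGANTCA, the letters of AP-1 sites, was in C3ar1 alone (7.81% of all windows), GAAANNGAA, found in interferon response elements, in C5ar1 alone (8.56%), TTNCNNAA, a loose C/EBP form, in 3 (40.7%), and AGGTCA, a nuclear receptor half-site, in C1qc and Cfp (16.3%). A match is a run of letters and was not tested as a site. C1qa and Cfb were not searched.

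The alternative pathway was represented by properdin and factor B. Cfp (probe set 17540521), whose product stabilises the C3 convertase, had 9.04, 9.09 and 9.12 in Tel+GW+LPS cells, against 9.14, 9.48 and 9.14 in Tel+LPS cells. Its groups did not overlap, but the gap between the highest array with GW9662 and the lowest without it was small, and the mean difference rested on replicate 2 of Tel+LPS. The difference was -0.17 ± 0.10 (SE), with a 95% interval of -0.40 to 0.06, and it was -0.05 without that array. Cfb (probe set 17344064), the gene of the protease of that convertase, had 5.71, 5.52 and 5.60 in Tel+GW+LPS cells, against 5.55, 5.49 and 5.53 in Tel+LPS cells. It lay below the level filter on all 6 arrays and was not tested, and its difference of 0.08, with a 95% interval of -0.09 to 0.26 from a limma fit without the filter, is given as a value only.

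Of the receptors, C3ar1 (probe set 17470616), which binds the C3a fragment, had 11.58, 11.65 and 11.71 in Tel+GW+LPS cells, against 11.81, 11.82 and 11.71 in Tel+LPS cells. The ranges met at replicate 3 of each group. The difference was -0.13 ± 0.07 (SE), a ratio of 0.91 with a 95% interval of 0.82 to 1.02. C5ar1 (probe set 17486864), the receptor gene of the chemoattractant C5a, had 7.41, 7.64 and 7.62 in Tel+GW+LPS cells, against 7.66, 7.72 and 7.65 in Tel+LPS cells. Its groups did not overlap, although replicates 2 and 3 with GW9662 lay close under those without, and replicate 1 with GW9662 set most of the mean. The difference was -0.12 ± 0.08 (SE), with a 95% interval of -0.30 to 0.06, and it was -0.04 without that replicate. Itgam (probe set 17483577), which encodes CD11b, had 10.69, 10.85 and 10.72 in Tel+GW+LPS cells, against 10.85, 10.76 and 10.86 in Tel+LPS cells. Its difference of -0.07 ± 0.07 (SE), with a 95% interval of -0.23 to 0.09, was within the spread of the arrays, and it was -0.04 without replicate 1 and -0.12 without replicate 2 of Tel+GW+LPS.

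Non-overlapping groups with the Tel+GW+LPS arrays lower were thus seen in 2 of 7 members tested, C5ar1 and Cfp, against 5.36% of all genes tested, and in 0 members with those arrays higher, against 4.01%. With 7 genes no more than the counts can be given, and neither member passed. The lower ends of the 95% intervals were ratios of 0.82 for C3ar1 and 0.85 for Itgam, and reached 0.67 for C1qb.

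**Figure D2:**
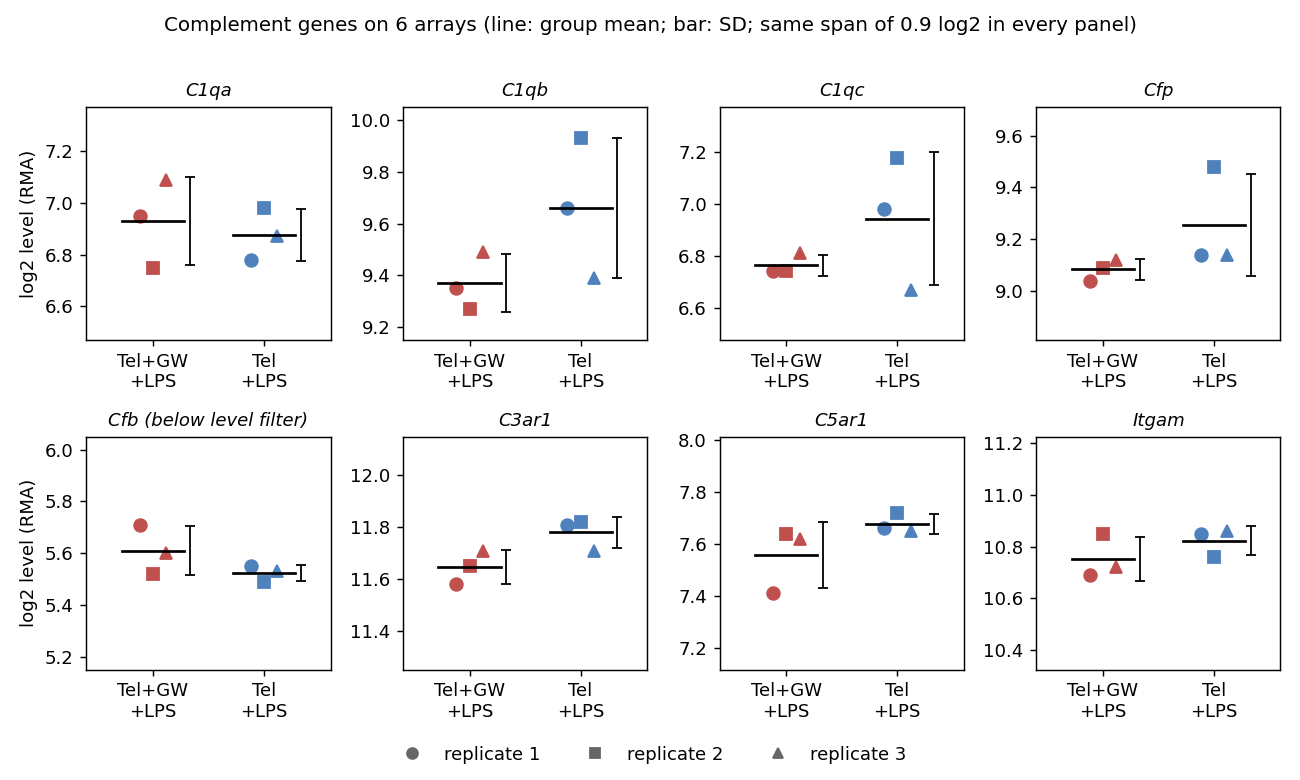
Log2 level (RMA) of the 8 complement genes on each array, Tel+GW+LPS left (red) and Tel+LPS right (blue), with 1 symbol shape per replicate number, a line at the group mean and a bar of 1 SD (n = 3 each). Only C5ar1 and Cfp have groups that do not overlap, and in C1qb and C1qc the Tel+LPS arrays spread from 9.39 to 9.93 and from 6.67 to 7.18.

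Single arrays moved the C1q differences. Replicate 3 of Tel+LPS and replicate 2 of Tel+GW+LPS stood apart from the other 4 arrays on the first principal component over all genes tested, with scores of 14.6 and 7.55 against -8.15 to -0.98. Without replicate 3 of Tel+LPS, C1qb differed by -0.42 (unadjusted p = 0.0044, adjusted p = 0.729, limma), C1qc by -0.32 (unadjusted p = 0.00532, adjusted p = 0.774, limma) and C3ar1 by -0.17 (unadjusted p = 0.0458, adjusted p = 0.861, limma). Without replicate 2 of Tel+LPS the same genes differed by -0.15, -0.06 and -0.11. Without both arrays that stood apart, C1qb differed by -0.37 and C1qc by -0.31, each at an adjusted p of 0.594 in limma. What set these arrays apart was not tested.

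**Figure D3:**
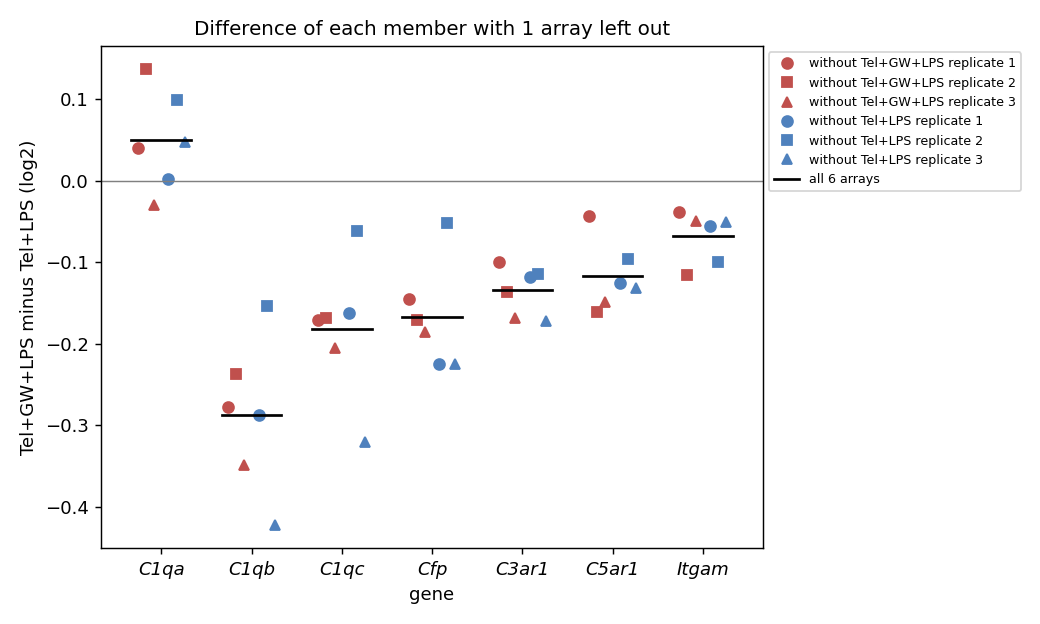
Difference of each tested member, Tel+GW+LPS minus Tel+LPS in log2 units, with 1 array left out (symbols; red where a Tel+GW+LPS array is left out, blue where a Tel+LPS array is) and with all 6 arrays (black line). C1qb ranges from -0.42 to -0.15 and C1qc from -0.32 to -0.06, both ends set by Tel+LPS arrays, and C1qa alone crosses 0.

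The rest of the pathway was read from 6 lists of 58 genes, members included, of which 54 had a row and 23 lay above the level filter. None of the 23 passed in limma in either direction; 20 had a negative and 3 a positive difference, with a median of -0.10, where 58.8% of all genes tested were negative with a median of -0.02. Leaving out the members, 14 of 16 were negative, with a median of -0.07. Of the 16, 3 had groups that did not overlap, all lower, a pattern seen in 5.36% of all genes tested. They were C1rb, at -0.25, and Cd93 and Calr, whose differences were only -0.08 and -0.03. In the classical list 5 of 10 genes were tested. C1rb, one of the mouse genes of the protease C1r, had 6.95, 6.85 and 6.80 in Tel+GW+LPS cells, against 7.18, 7.02 and 7.16 in Tel+LPS cells. Its groups did not overlap, and its difference of -0.25 ± 0.07 (SE) had a 95% interval of -0.42 to -0.08, with an adjusted p of 0.928 in limma. C1rb and C1ra are near-identical copies, so signal may be shared between their probe sets. C1ra differed by -0.15 ± 0.10 (SE), with a 95% interval of -0.39 to 0.09 and overlapping groups. C2, C4a, C4b, C1s1 and C1s2, the other classical components listed, lay below the filter, as did all 7 genes of the terminal pathway that forms the membrane pore.

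Among receptors and C1q-binding proteins, 10 of 12 were tested and 9 were negative, with a median of -0.05. C5ar2, a second C5a receptor gene next to C5ar1 on chromosome 7, had 7.77, 7.81 and 7.88 in Tel+GW+LPS cells, against 8.18, 7.94 and 7.87 in Tel+LPS cells. Replicate 3 of Tel+LPS overlapped the arrays with GW9662, and the difference was -0.18 ± 0.09 (SE; adjusted p = 0.994, limma). Itgb2, which encodes the CD18 chain that pairs with CD11b, differed by 0.05, in the opposite direction to Itgam, and Fermt3, the kindlin gene that activates these integrins in blood cells, by 0.13 with higher, non-overlapping arrays. Of the 6 tested genes of the beta2 integrin list, 3 were positive and 3 negative, and none passed.

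Among regulators 4 of 15 with a row were tested, and the lowest was Cd46, a cofactor for the cleavage of C3b, at -0.20 ± 0.10 (SE). Clu, which encodes the fluid-phase inhibitor clusterin, differed by -0.11 and Cd59a, an inhibitor of the membrane pore, by -0.07. Cr1l, the remaining regulator tested, differed by 0.02, in the opposite direction. In the lectin list 3 of 8 with a row were tested: Colec11 at -0.15, Colec12 at -0.10 and Fcna at -0.04, genes of collectins and a ficolin that recognise sugars. Of the proteins with a C1q domain outside complement, 7 were tested and none passed. C1ql1, a synaptic member of that family, had a mean of 6.41 in Tel+GW+LPS cells and 5.99 in Tel+LPS cells, so it met the level filter only through the group in which it was higher. It differed by 0.42 ± 0.15 (SE) with overlapping groups (adjusted p = 0.994, limma), while C1qtnf6 differed by 0.03 and Cbln3 by -0.02.

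**Figure D4:**
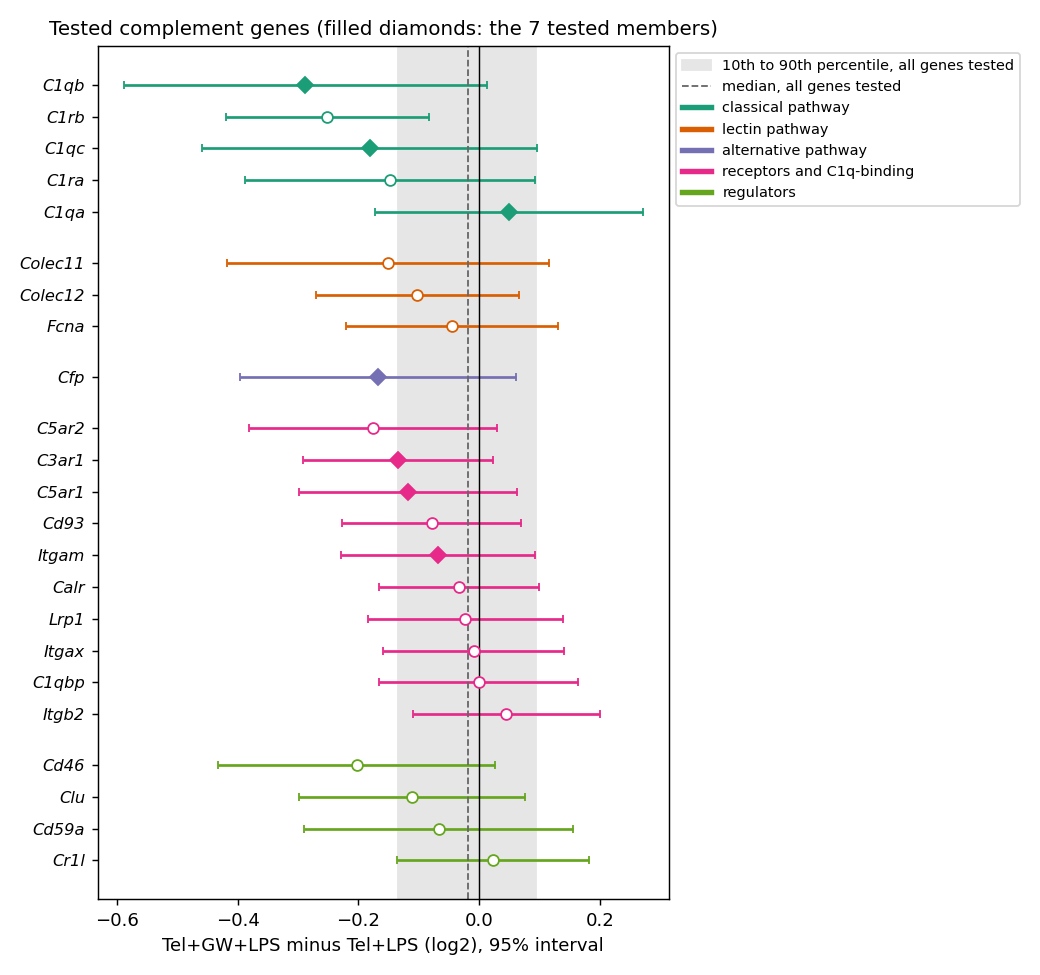
Difference, Tel+GW+LPS minus Tel+LPS in log2 units, with 95% intervals from limma for the 23 complement genes above the level filter, coloured by list, with filled diamonds for the 7 tested members, open circles for other genes and a grey band from the 10th to the 90th percentile of all genes tested. Only the interval of C1rb, -0.42 to -0.08, leaves out 0, and no gene passed after adjustment.

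As a list, microglia and macrophage markers stood higher in mean level than markers of other cells. Of all 22180 genes with a row, 12212 lay above the level filter. Of 15 microglia and macrophage markers with a row, 12 lay above the level filter, with 6 positive and 6 negative differences and a median of -0.01, and 3 markers of resident brain microglia, P2ry12, Tmem119 and Sall1, lay below it. The mean level of this list was 9.14 to 9.18 on Tel+GW+LPS arrays and 9.09 to 9.29 on Tel+LPS arrays. The mean levels of the lists of other cells reached at most 6.33, for astrocytes on a Tel+GW+LPS array. Single markers did not separate in this way. Over the 6 arrays, the astrocyte marker Aldoc had a mean of 10.41 and the neuron marker Syn1 8.52. The microglia markers Aif1 and Cx3cr1 had 6.86 and 7.02. Aif1, the IBA1 gene, had the lowest difference of the tested ones, at -0.20, with non-overlapping groups (adjusted p = 0.994, limma). Of the markers of other cells, 3 of 8 for astrocytes, 2 of 8 for neurons, 4 of 7 for oligodendrocytes, 4 of 8 for fibroblasts and 2 of 7 for lymphocytes were above the filter, and none passed. Pparg lay below the filter, at 5.44 ± 0.12 in Tel+GW+LPS cells and 5.49 ± 0.13 in Tel+LPS cells (log2 level, SD, n = 3 each). Pairs of arrays had correlations between 0.990 and 0.996 over the genes tested.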

How the data were processed

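RNA of 6 BV2 samples was hybridised to 1 array each. The deposited log2 values were made by the authors with RMA (background correction, quantile normalization over the 6 arrays and median polish), run by Affymetrix Power Tools 1.4.1.46 per the file headers and within Expression Console according to the submitters' processing notes. Quantile normalization hides any shift shared by most transcripts, and the number of arrays limits the precision. The labelling protocol names an older version of the mouse gene array than the file headers do. All columns were used.

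Probe sets were named through the platform annotation: of 41345, 23521 carried 1 symbol and 1820 several. The brightest probe set stood for each gene, and 12212 genes with a mean log2 level of at least 6.15 were tested in R 4.3.3 by limma 3.58.1 (moderated linear model with group as its term, Benjamini-Hochberg over all genes tested, threshold 0.05). Scripts were tested on simulated data. The members and lists were chosen with earlier results of these data known. Named were all members and, per list, the 3 tested genes with the smallest p where none passed, fewer where fewer were tested. C1ra, Calr, Cd93, Cr1l, the members of lists below the filter, Aldoc, Syn1, and Aif1 and the microglia markers were named after their values were seen. Alternatives were the level filter, the probe set per gene, array weights, the estimate of the spread, the scaling, the replicate number as a block, a second deposited log2 table of the authors with 2 decimals, and arrays left out. Same-numbered samples of the groups deviated together with correlations of 0.29, -0.45 and -0.12, so the numbers were not taken as pairs.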

Additional observations from a re-analysis of the deposited data

How the results depend on the processing

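No member and no gene of the complement lists above the level filter passed under any of the 19 alternatives run, and the median difference of the tested members stayed between -0.17 and -0.10. With 1 array left out, C1qa ranged from -0.0296 without replicate 3 of Tel+GW+LPS (unadjusted p = 0.768, limma) to 0.14 without its replicate 2, and with array weights it was 0.16; the sign of the other 6 tested members held in every alternative run that kept them, and C1qa and C1qc dropped out under the stricter level filter. The lowest adjusted p of a member was 0.195, for C1qb with array weights, which gave replicate 1 of Tel+LPS a weight of 5.74. At an unadjusted p under 0.05 in limma there were 3 members with array weights, 2 with a trend on the mean level, 3 without replicate 3 of Tel+LPS, 2 without both arrays that stood apart, and 0 in the other 15 alternatives. Of all 12212 genes tested, 2013, 530, 704 and 944 reached it under those settings, in that order, against 543 in the main fit. The member counts are therefore given as counts only.

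Over all genes, where 5 passed, the count was 1 with no level filter, 9 with the stricter one, 3 over all probe sets, 49 with array weights, 13 with a trend, 2 with robust estimation, 0 without moderation (610 at an unadjusted p under 0.05), 16 with median centring, 10 with repeated quantile normalization and 0 when both arrays set apart on the first principal component were left out (944 at an unadjusted p under 0.05). It ranged from 0 to 2 with 1 array left out. The cause was not tested, beyond the number of genes or arrays that each alternative changes. With the replicate number as a block the count was 0 (379 genes at an unadjusted p under 0.05); of the Tel+LPS samples only replicate 1 deviated most like its own number. The 3 arrays per group limit these values: the median SE over genes tested was 0.08 on the log2 scale.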
